A study of Homo sapiens with 4 samples.

Results

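Insulin-like growth factors (IGFs) are carried outside the cell by a family of binding proteins, and the 9 genes described here are those of IGFBP1 to IGFBP7 and of the receptors IGF1R and IGF2R. They were chosen by gene symbol from the 17716 genes of the deposited table, each had 1 probe set (a group of short probes for the same transcript), and 8 of the 9 were bright enough to enter the test. The RNA came from Hs683, an established line of human glioma cells, and was hybridised to 4 Affymetrix arrays. All cells carried a knockdown of QK, the gene now named QKI, which encodes an RNA-binding protein of glial cells. The 2 control arrays came from cells transduced with miR-NT, a microRNA of scrambled sequence with no target, and the other 2 from cells transduced with miR-20a. The labels name neither the vector nor its promoter nor the time after transduction, and do not say whether the arrays of a group were separate cultures, and p-values therefore rest on the spread between arrays, which may be technical.

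IGF1R is a receptor tyrosine kinase that carries the growth and survival signal of IGF1 and IGF2. IGF2R, which is also the cation-independent mannose 6-phosphate receptor, takes up IGF2 for breakdown and sorts lysosomal enzymes, and has no kinase. The binding proteins hold IGFs away from IGF1R or release them near it after cleavage by proteases, and several also act on cells without binding an IGF. IGFBP7 binds IGFs only weakly and is often grouped with the IGFBP-related proteins. IGFBP2, IGFBP3 and IGFBP5 are well known from gliomas.

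The microRNA under study belongs to the miR-17 family, whose members share the seed, bases 2 to 8 of the mature strand, through which a microRNA pairs with its target transcripts. In RefSeq (GRCh38.p14) 8 mature microRNAs have the seed of miR-20a-5p. Here 3 of them are shown to make the shared part visible, 5′ to 3′, with the seed in capitals. The labels do not name the strand of miR-20a that was delivered, and no target site in the 9 genes was searched, since transcript ends were not used here.
hsa-miR-20a-5p: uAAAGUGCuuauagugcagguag
hsa-miR-17-5p: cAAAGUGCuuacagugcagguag
hsa-miR-93-5p: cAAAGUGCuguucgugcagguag

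With miR-20a the signals of IGFBP3 and IGFBP5 were lower by 2.22-fold and 1.93-fold, and those of the other 7 genes differed by at most 1.27-fold. No member passed the limma test at an adjusted p under 0.05 over the 12401 genes tested. That background was itself nearly empty, with 1 gene (0.00806%) called lower and 0 called higher (0%). At an unadjusted p under 0.05, 4 of the 8 tested members were lower and 1 was higher, where 13.2% of all genes tested were lower (1633 genes) and 5.82% higher (722 genes). After quantile normalization these 2 counts for all genes were 1450 and 1584, and 2 of the 8 members, IGFBP3 and IGFBP5, were lower and 1 higher. The count of lower members was also 2 in a fit with a covariate for the control probe set at the 5′ end of ACTB and when replicate 1 of miR-NT, replicate 2 of miR-NT or replicate 2 of miR-20a was left out. The members were picked with results of these arrays known, so their count is a description. The log2 fold change was below 0 in 6 of the 8 tested members and in 53.8% of all genes tested. The median log2 fold change of the 8 was −0.22, beside −0.02 for all genes tested. It was −0.13 after quantile normalization, −0.11 without replicate 2 of miR-20a and 0.04 with the ACTB 5′ covariate, where that of all genes was 0.05. A bulk array cannot tell less RNA per cell from fewer cells that make it.

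IGFBP3, the main carrier of IGFs in serum, a gene induced by TGF-beta and p53, stood at 10.47 and 10.22 in the miR-NT arrays and at 9.39 and 8.99 in the miR-20a arrays (log2). The control arrays were both the higher ones, by more than the distance between arrays of the same group. The log2 fold change was −1.15 (SE 0.15, 95% confidence interval −1.51 to −0.80, not adjusted for the number of genes), from 10.34 ± 0.18 to 9.19 ± 0.28 (SD, n = 2 each). Its rank by p was 12 among all genes tested, and the limma adjusted p of 0.0727 was short of the threshold. It passed barely after median centring (limma adjusted p = 0.0493) and with an intensity trend and robust prior (0.0491). Over all its alternatives the limma adjusted p ran from 1.51e-08, without replicate 1 of miR-20a, to 0.701, without replicate 1 of miR-NT.

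IGFBP5, a matrix-associated binding protein that is among the most conserved of the family, stood at 7.90 and 7.85 in the miR-NT arrays and at 6.95 and 6.90 in the miR-20a arrays. The groups stood far apart against arrays of the same group that were almost level, 0.04 apart in the controls and 0.05 apart in the miR-20a pair. The log2 fold change of IGFBP5 was −0.95 (SE 0.10, 95% confidence interval −1.17 to −0.72), from 7.88 ± 0.03 to 6.93 ± 0.04 (SD, n = 2 each). By p it ranked 2 among all genes tested, with a limma adjusted p of 0.0670. Under 4 alternatives that kept all arrays it passed, namely quantile normalization (limma adjusted p = 0.0417), median centring (0.0417), leaving out the dimmest 50% of genes (0.0422) and an intensity trend with a robust prior (0.0353). Its limma adjusted p ran from 2.33e-06 to 0.701 when the same arrays were left out.

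**Figure D1:**
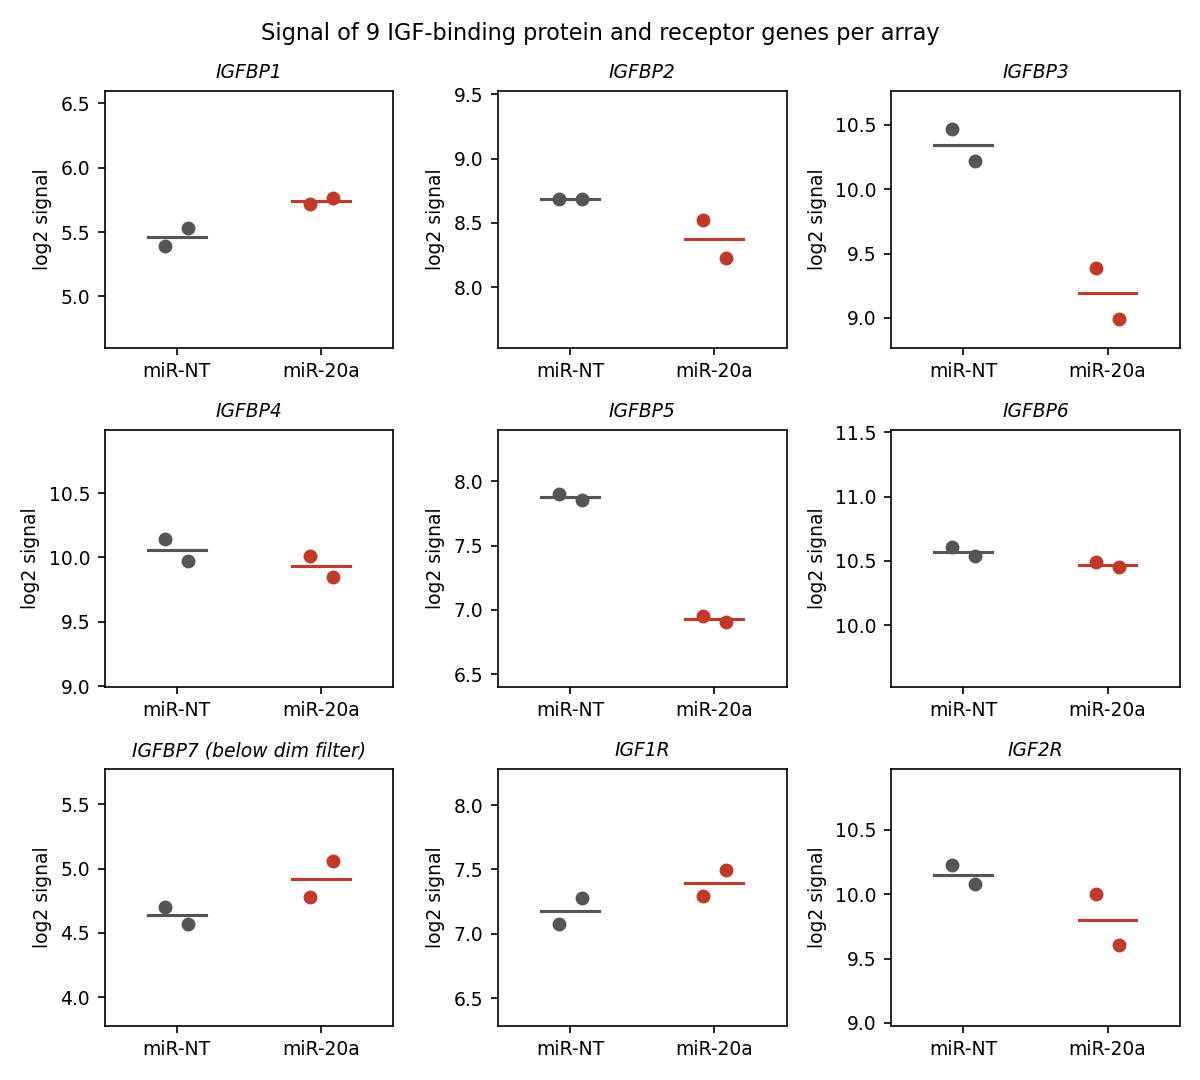
Log2 signal (y axis) of the 9 genes on the 4 arrays, with miR-NT in grey and miR-20a in red; points are arrays, bars are group means (n = 2), and every panel spans the same range of the log2 scale around its own centre. The separation of the groups is widest for IGFBP3 and IGFBP5, while the points of IGFBP4 overlap.

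IGFBP2, a binding protein abundant in the developing brain and in high-grade glioma, stood at 8.69 in both miR-NT arrays and at 8.52 and 8.23 in the miR-20a arrays. The miR-20a values were both below the control values, but they were 0.29 apart from each other. Its log2 fold change was −0.31 (SE 0.12, 95% confidence interval −0.59 to −0.03, limma adjusted p = 0.236).

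IGFBP4, which mostly holds IGFs away from their receptor and is cut by the protease PAPPA, stood at 10.14 and 9.98 in the miR-NT arrays and at 10.01 and 9.85 in the miR-20a arrays. The groups overlapped, and the log2 fold change was −0.13 (SE 0.11, limma adjusted p = 0.509), with a 95% confidence interval of −0.39 to 0.13.

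IGFBP6, which binds IGF2 in preference to IGF1, stood at 10.61 and 10.54 in the miR-NT arrays and at 10.49 and 10.45 in the miR-20a arrays. The groups did not overlap, yet the log2 fold change of −0.10 (SE 0.10, limma adjusted p = 0.555) was close to 0, and its 95% confidence interval ran from −0.33 to 0.12. After quantile normalization it was 0.0041, with the opposite sign.

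IGFBP1, a binding protein mainly of liver and decidua, stood at 5.39 and 5.53 in the miR-NT arrays and at 5.72 and 5.77 in the miR-20a arrays. These values are near the floor of the test, whose dimmest gene had a mean of 5.46, and both miR-20a arrays were above both controls. The log2 fold change was 0.28 (SE 0.10, 95% confidence interval 0.05 to 0.52, limma adjusted p = 0.216).

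IGFBP7 stood at 4.70 and 4.57 in the miR-NT arrays and at 4.78 and 5.06 in the miR-20a arrays, below that floor. In the fit without a filter on dim genes its log2 fold change was 0.28 (SE 0.12, limma adjusted p = 0.293). It was the only member left out of the test.

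**Figure D2:**
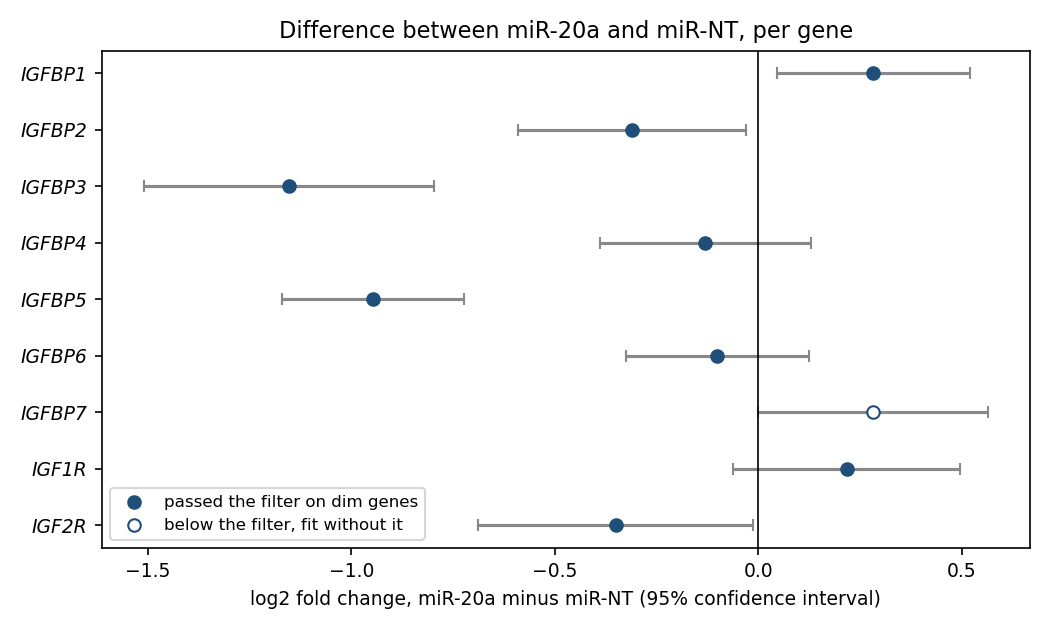
Log2 fold change (x axis, miR-20a minus miR-NT) of each gene with its 95% confidence interval from limma, not adjusted for the number of genes; the open point is IGFBP7, which was fitted without the filter on dim genes. IGFBP3 at −1.15 and IGFBP5 at −0.95 lie apart from the other genes, which range from −0.35 to 0.28.

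Of the receptors, IGF1R stood at 7.07 and 7.28 in the miR-NT arrays and at 7.29 and 7.49 in the miR-20a arrays. The higher control array and the lower miR-20a array nearly touched. For this gene the log2 fold change was 0.22 (SE 0.12, 95% confidence interval −0.06 to 0.50, limma adjusted p = 0.345), positive where those of 6 other members were negative. Its probe set is annotated to an expressed sequence tag, and which part of the transcript it reads was not established.

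IGF2R stood at 10.23 and 10.08 in the miR-NT arrays and at 10.00 and 9.60 in the miR-20a arrays. All miR-20a values were below the controls, and the arrays of that group were 0.40 apart. The log2 fold change was −0.35 (SE 0.14, 95% confidence interval −0.69 to −0.01, limma adjusted p = 0.254). Leaving out replicate 2 of miR-20a gave −0.15, and leaving out replicate 1 gave −0.55. For IGFBP2 the same fits gave −0.17 and −0.46. Each leaves 1 miR-20a array and takes its spread largely from all genes. The SE of IGFBP2 was 0.13 there, although its control arrays were almost equal. Across the alternatives the limma adjusted p reached 0.957 for IGF2R and 0.992 for IGFBP2.

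Over the 8 tested members, 5 had all miR-20a values below the controls and 2 had them all above, where 31.1% of all genes tested were lower without overlap and 25.1% higher.

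The control probe set at the 5′ end of ACTB, often used to judge how intact the RNA was, had a log2 difference of −1.71 between miR-20a and miR-NT. Between replicates 2 and 1 of miR-20a it was −1.16. For the 5′ control of GAPDH these differences were −1.11 and −0.87. Between replicates 2 and 1 of miR-NT they were −0.11 for ACTB and −0.08 for GAPDH. The 5′ signals were not compared with 3′ signals here, so RNA quality was not told apart from expression of these 2 genes. The transcript of QKI itself stood at 8.14 and 7.92 in the miR-NT arrays and at 7.52 and 7.08 in the miR-20a arrays, and arrays of cells with intact QKI were not analysed here. The same difference between replicates 2 and 1 of miR-20a was −0.40 for IGFBP3, −0.40 for IGF2R, −0.29 for IGFBP2 and −0.16 for IGFBP4. It was −0.05 for IGFBP5 and −0.04 for IGFBP6, and above 0 for IGFBP1 (0.05), IGF1R (0.20) and IGFBP7 (0.28). Between the miR-NT replicates it was −0.25 for IGFBP3, −0.17 for IGFBP4, −0.15 for IGF2R, −0.13 for IGFBP7, −0.07 for IGFBP6 and −0.04 for IGFBP5. There IGFBP2 was level (−0.0011), and IGFBP1 (0.14) and IGF1R (0.21) were above 0. The ACTB 5′ signal was 12.78 and 12.66 in the miR-NT arrays and 11.59 and 10.43 in the miR-20a arrays. A fit with it as a covariate leaves 1 residual degree of freedom. Such a fit cannot cleanly separate the covariate from the group, since both differ between the same arrays. In it the log2 fold change of IGFBP5 was −0.87 and that of IGFBP3 was −0.54. In the same fit IGF2R was at 0.26, IGFBP2 at 0.11, IGFBP4 at 0.12 and IGF1R at −0.10, each with the opposite sign. All 6 of these values had an SE of 0.25, which is a spread shared across genes and not each gene's own. The limma adjusted p was 0.176 for IGFBP5 and 0.657 for IGFBP3. IGFBP1 was at 0.19 and IGFBP6 at −0.03 there. IGFBP7 was not in this fit. The part of RNA quality in the members' differences was not tested beyond these values.

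**Figure D3:**
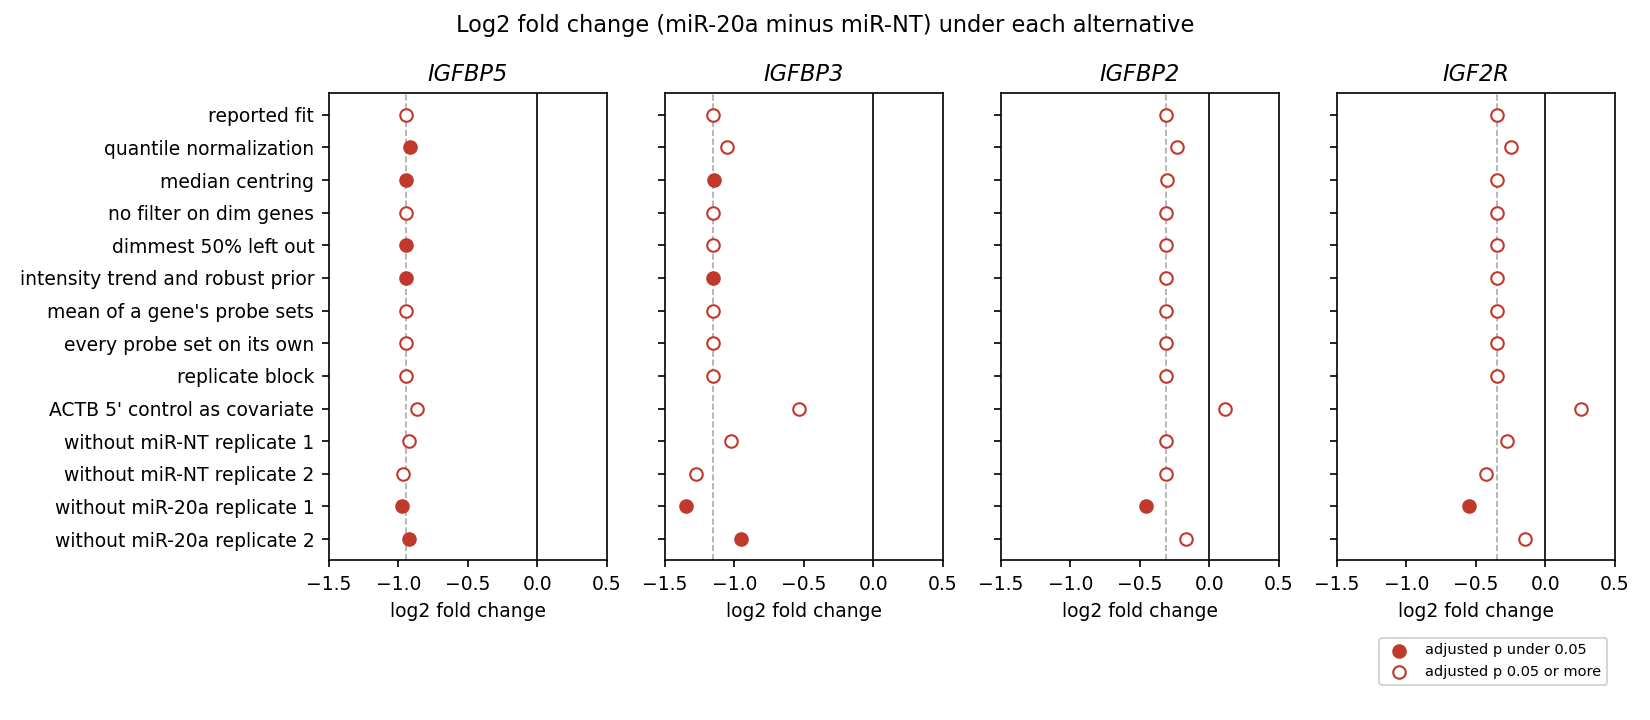
Log2 fold change (x axis, miR-20a minus miR-NT) of 4 genes under the reported fit and each alternative (rows); filled points have a limma adjusted p under 0.05, and the dashed line is the reported value. IGFBP5 stays between −0.97 and −0.87, IGFBP3 comes as near 0 as −0.54, and IGFBP2 and IGF2R cross 0 with the ACTB 5′ covariate.

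In the RefSeq gene table (GRCh38.p14), 2 pairs of the binding protein genes are next to each other among protein-coding genes, IGFBP1 with IGFBP3 and IGFBP2 with IGFBP5. In each pair a gene with a large difference neighbours a gene with a small one. The difference IGFBP5 minus IGFBP2 on the same array was −0.79 and −0.83 in the controls and −1.57 and −1.33 in the miR-20a pair, a shift of −0.64. The difference IGFBP3 minus IGFBP1 was 5.08 and 4.69 in the controls and 3.67 and 3.23 in the miR-20a pair, a shift of −1.44. Only the shift between groups can be read from these differences, since probe sets differ in brightness for the same amount of RNA, and IGFBP1 was dim.

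Promoter sequences were at hand for 7 of the 9 genes, IGFBP1 and IGFBP7 not among them. They are shown for IGFBP3 and IGFBP5, the genes with the largest differences, and for IGFBP4, whose groups overlapped. Each is the 100 bases before the transcription start, 5′ to 3′ on the gene's own strand (RefSeq, GRCh38.p14), with a TATA element in capitals. The intervals are chr7:45921273-45921372, minus strand, for IGFBP3, chr2:216695550-216695649, minus strand, for IGFBP5, and chr17:40443350-40443449, plus strand, for IGFBP4.
IGFBP3: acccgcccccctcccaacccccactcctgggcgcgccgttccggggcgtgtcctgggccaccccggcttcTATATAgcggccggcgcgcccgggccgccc
IGFBP5: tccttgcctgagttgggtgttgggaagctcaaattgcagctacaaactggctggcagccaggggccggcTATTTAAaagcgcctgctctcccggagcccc
IGFBP4: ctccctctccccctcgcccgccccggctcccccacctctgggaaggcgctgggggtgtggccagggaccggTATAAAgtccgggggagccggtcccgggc

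The element searched was TATAAA, with the variant spelling TATATA and the longer variant spelling TATTTAA, on both strands and chosen with these promoters in view. Of 35116 RefSeq promoter windows of that length, 7.4% hold at least 1 of them. Among the 7 genes, IGFBP3, IGFBP4 and IGFBP5 hold 1 each, with the first base 30, 29 and 31 bases before the start. IGFBP2 (3 start sites), IGFBP6, IGF1R and IGF2R hold none. IGFBP3 and IGFBP5, with the largest differences, hold the element. Of the genes with small differences and a promoter at hand, IGFBP4 alone does, and IGFBP1 and IGFBP7 could not be searched. Since the spellings were chosen with these promoters in view, this match is a description only. Whether the element bears on the differences was not tested. The GC box GGGCGG, on both strands, occurs in 31.3% of the windows, 2 times in that of IGFBP3, 1 time in that of IGFBP4 and not in that of IGFBP5. It occurs 3 times in that of IGF2R, 1 time in that of IGFBP6 and 1 time each at start sites 1 and 2 of IGFBP2. The windows of IGF1R and of start site 3 of IGFBP2 hold none.

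The rest of the pathway was read from lists of known partners. No gene in any of them passed the limma test over all genes, in either direction. Each list count at an unadjusted p under 0.05 given below stands beside 13.2% of all genes tested lower and 5.82% higher. The lists were not tested as sets. Of the ligands and insulin-family receptors, IGF1, INS and INSR were below the filter on dim genes, with values of 4.43 to 4.71 on all arrays, and IGF2 was not analysed here. The insulin receptor-related INSRR was the only one of this list in the test (log2 fold change −0.07, SE 0.14).

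Proteases that cut binding proteins, with their regulators, had 13 tested genes, 3 lower and 1 higher at an unadjusted p under 0.05, and a median log2 fold change of −0.01. PLAU, the urokinase that activates plasmin, stood at 10.42 and 10.30 in the miR-NT arrays and at 9.55 and 8.60 in the miR-20a arrays (log2 fold change −1.28, SE 0.26, limma adjusted p = 0.100). The metalloproteases ADAM9 (−0.97, SE 0.20) and ADAMTS1 (−0.85, SE 0.18) were lower too, and the collagenase MMP1 was higher (0.34, SE 0.11). PAPPA, the protease of IGFBP4, was below the filter, and its inhibitor STC2 was level at 0.07 (SE 0.09). C1S, also below the filter, stood at 4.99 and 5.04 in the miR-NT arrays and at 4.12 and 4.15 in the miR-20a arrays. In the fit without a filter it was at −0.88 (SE 0.10, limma adjusted p = 0.0674). ADAM28, dim as well, was at 0.38 there (SE 0.11, limma adjusted p = 0.196). PLAU, ADAM9 and ADAMTS1 were all lower in replicate 2 of miR-20a, and without that array they were at −0.81, −0.64 and −0.56.

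The IGFBP-related proteins, which share the cysteine-rich amino-terminal domain of the family, had 7 tested genes with a median log2 fold change of −0.15, 1 lower and 1 higher at an unadjusted p under 0.05. The matricellular protein CCN1 stood at 10.89 and 10.82 in the miR-NT arrays and at 10.34 and 9.71 in the miR-20a arrays (log2 fold change −0.83, SE 0.19, limma adjusted p = 0.116). Its relative CCN2 overlapped between groups (−0.37, SE 0.19). CCN3 was higher at the unadjusted threshold (0.25, SE 0.10), and IGFBPL1 was at 0.26 (SE 0.13, limma adjusted p = 0.327). The IGF2 mRNA-binding proteins, which share a name but bind RNA, gave 0.19 (SE 0.11) for IGF2BP2 and −0.29 (SE 0.17) for IGF2BP3.

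Downstream of IGF1R, the adaptors and the RAS-MAPK branch had 13 tested genes with a median log2 fold change of 0.08, 4 lower and 2 higher at an unadjusted p under 0.05. The docking protein IRS1, the first substrate of IGF1R, stood at 7.15 in both miR-NT arrays and at 7.45 and 7.48 in the miR-20a arrays (0.32, SE 0.09, limma adjusted p = 0.168). The adaptor SHC1 was at −0.61 (SE 0.17), the phosphatase PTPN11 at −0.44 (SE 0.16) and the kinase MAP2K2 at −0.91 (SE 0.19, limma adjusted p = 0.102). The PI3K-AKT-mTOR branch had 15 tested genes with a median of −0.05, 4 lower and 0 higher at an unadjusted p under 0.05. Over all genes tested these shares were 13.2% and 5.82%. The 4 lower genes of this branch were RPS6KB1, the S6 kinase (−0.57, SE 0.13), RHEB, the activator of mTOR (−0.57, SE 0.15), the kinase AKT1 (−0.32, SE 0.12) and TSC2, the inhibitor of RHEB (−0.37, SE 0.14). Their limma adjusted p ran from 0.117 to 0.239.

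Partners of IGF2R in lysosomal sorting had 11 tested genes with a median log2 fold change of −0.20, 3 lower and 1 higher at an unadjusted p under 0.05. That median was −0.09 after quantile normalization and without either replicate 1 of miR-NT or replicate 2 of miR-20a, and 0.07 with the ACTB 5′ covariate. The clathrin adaptor subunit AP1M1 was at −0.56 (SE 0.11, limma adjusted p = 0.0963), the adaptors GGA2 and GGA3 at −0.36 (SE 0.11) and −0.25 (SE 0.10), and GNPTAB, which makes the mannose 6-phosphate tag, at 0.25 (SE 0.10). Cell-surface and matrix partners of the binding proteins had 9 tested genes, 2 lower and 0 higher, with a median of −0.15. These were the integrin subunit ITGB1 (−1.34, SE 0.22, limma adjusted p = 0.0828) and the matrix protein FN1 (−0.41, SE 0.10, limma adjusted p = 0.127). Next by p were LRP1, a receptor proposed for IGFBP3 (−0.17, SE 0.11), and the integrin subunit ITGA5 (−0.17, SE 0.11).

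The values of several partner genes came nearer to 0 when replicate 2 of miR-20a, the array with the lowest ACTB 5′ signal, was left out. Without it SHC1 was at −0.35, MAP2K2 at −0.59, RHEB at −0.34, AKT1 at −0.21, TSC2 at −0.18, CCN1 at −0.52 and CCN2 at −0.06. PTPN11 was at −0.18 without replicate 1 of miR-NT and at −0.70 without replicate 2 of miR-NT. With the ACTB 5′ covariate the values were 0.17 for SHC1, 0.01 for MAP2K2, 0.12 for RHEB, 0.05 for AKT1 and 0.21 for TSC2. They were 0.10 for CCN1, 0.56 for CCN2, 0.11 for PLAU, 0.01 for both ADAM9 and ADAMTS1 and −0.20 for ITGB1. RPS6KB1 was at −0.10, AP1M1 at −0.26, GGA2 at −0.07 and IGF2BP3 at 0.17. Of the genes reported as above 0, CCN3 was at 0.07, IGF2BP2 at 0.11 and GNPTAB at 0.16. In that fit IRS1 was at 0.28, MMP1 at 0.31 and PTPN11 at −0.37, each close to its reported value. GGA3 (−0.34) and FN1 (−0.45) lay further from 0 than reported. List medians there were 0.11 for the proteases, 0.07 for the IGFBP-related proteins, 0.24 for the adaptors and RAS-MAPK branch, 0.16 for the PI3K-AKT-mTOR branch and −0.08 for the cell-surface partners. The part of RNA quality in these lists was not tested further.

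**Figure D4:**
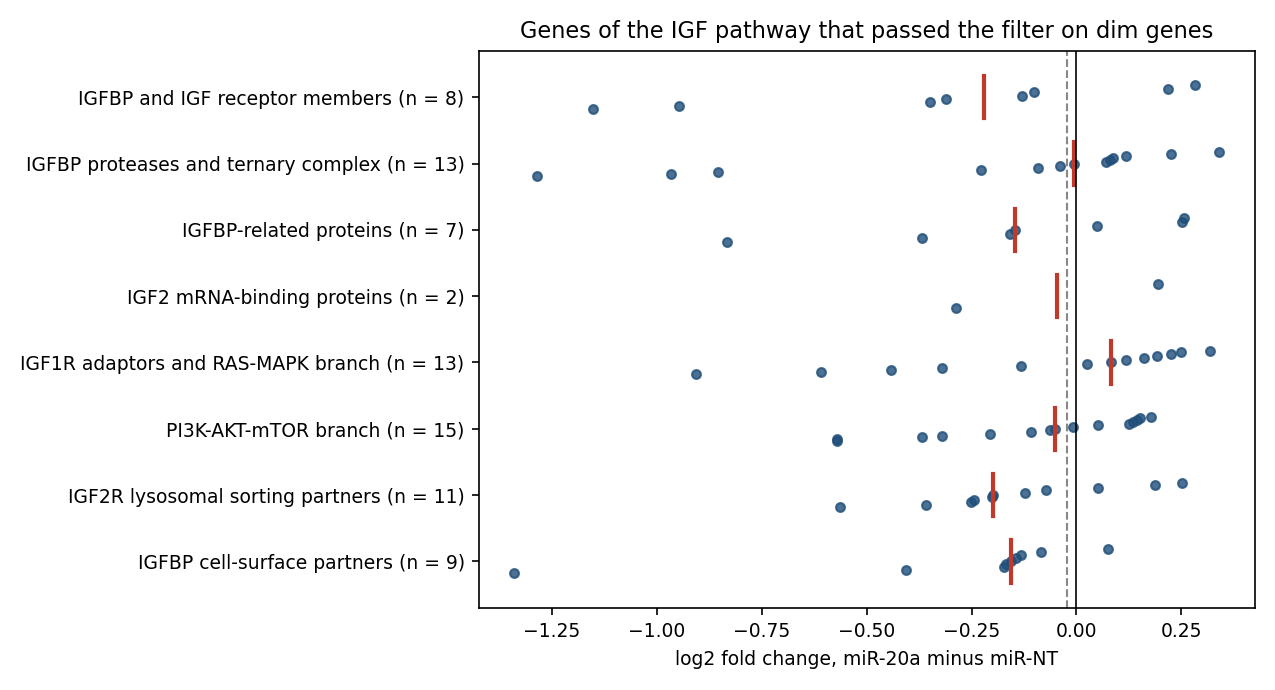
Log2 fold change (x axis, miR-20a minus miR-NT) of each tested gene (points) in 8 lists (rows, with the number tested); red bars are list medians, and the dashed line is the median of all genes tested, −0.02. Most points lie within a narrow band around 0, and IGFBP3 and IGFBP5 sit apart from the other members.

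By shape of the profile over the 4 arrays, with each gene centred on its own mean, the 3 genes nearest to IGFBP3 were the collagen chain COL4A2 (root mean square distance 0.038 on the log2 scale), the adaptor protein YWHAZ (0.052) and the chromatin protein HMGA1 (0.054). Their log2 fold changes were −1.08, −1.12 and −1.07. Nearest to IGFBP5 were the fucosyltransferase FUT8 (0.043), the adhesion molecule NECTIN2 (0.052) and the splicing factor SRSF1 (0.066), with log2 fold changes of −0.92, −0.99 and −0.97. Over 4 arrays such a likeness mostly repeats the size of the group difference.

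Of the markers of the labelled cell type, 10 of 19 measured glial and glioma genes were above the filter, VIM and CD44 among them. GFAP, S100B, NES, OLIG1, OLIG2, MOG, MAG, AQP4 and SLC1A3 were below it. The mean of that list was 6.32 to 6.34 with miR-NT and 6.33 with miR-20a. Its members went both ways, with log2 fold changes of −0.87 for CD44 (SE 0.15), 0.37 for PDGFRA (SE 0.09) and 0.36 for CSPG4 (SE 0.12), and limma adjusted p of 0.0949, 0.136 and 0.193. Immune markers had a mean of 5.83 to 5.92 with miR-NT and 5.91 to 6.00 with miR-20a. Of the 6 measured, 3 were above the filter, CD3E, ITGAM and AIF1, and PTPRC was among those below it. CD3E and AIF1 had means of 7.51 and 7.53 over all arrays. Passing the filter does not by itself show that a gene is expressed in these cells. Epithelial and endothelial markers had 5.75 to 5.76 with miR-NT and 5.73 to 5.79 with miR-20a. Neuronal markers had 7.14 to 7.15 and 7.19 to 7.25. KRT18 of the epithelial list and TUBB3 of the neuronal list were bright, with means over all arrays of 12.65 and 12.61.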

How the data were processed

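The authors deposited log2 expression values, judged from their range, 1 per probe set and array, for 20323 probe sets. Per the submitters' processing notes the tool was affy, of unstated version; how probes were summarised, corrected and normalized is not given in the sources. Groups came from the source names. Probe sets with 1 gene symbol (18060 of them; 886 had several) were named through the platform annotation, updated through the RefSeq gene table, where 17691 gene identifiers matched, and a gene was read from its brightest probe set (highest mean of the 4 arrays). The dimmest 30% of genes (5315) were left out. limma 3.58.1 in R 4.3.3 (lmFit, eBayes, two-sided, no covariate, 2 residual and 5.53 prior degrees of freedom, prior SD 0.11) was used, with Benjamini-Hochberg adjustment over all 12401 genes, after a check on simulated data. An exact permutation test of 2 against 2 arrays cannot give a p below 0.333, so none was run.

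The number of arrays limits the precision. The members and lists were chosen with earlier results of these data known. Genes named beside the members are up to 4 per list with the smallest p and the 3 nearest profiles of the 2 members with the largest differences. IGF1, INS, INSR, PAPPA, STC2, C1S, ADAM28, VIM, CD44, PDGFRA, CSPG4, PTPRC, CD3E, ITGAM, AIF1, KRT18 and TUBB3 were named after their values were seen. So were GFAP and the other glial markers below the filter. A planned comparison of protein sequences was not run. Alternatives were quantile normalization, median centring, other filters on dim genes, an intensity trend with a robust prior, other handling of probe sets, the replicate number as a block, the ACTB 5′ control as a covariate, and each array left out.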

Additional observations from a re-analysis of the deposited data

How the results depend on the processing

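IGFBP3 and IGFBP5 kept their direction under all 13 alternatives, with log2 fold changes of −1.35 to −0.54 and −0.97 to −0.87. IGFBP1 did so under the 12 that tested it. Several of these could not turn a sign. The filters on dim genes, the trend and robust prior, the handling of probe sets and the balanced replicate block leave each member's log2 fold change unchanged. Median centring shifts all genes of an array alike. IGFBP5 passed after quantile normalization (−0.91), median centring (−0.94), with the dimmest 50% left out (−0.95) and with a trend and robust prior (−0.95); IGFBP3 passed after median centring (−1.15) and with the trend and robust prior (−1.15). Signs turned for IGFBP6 after quantile normalization (0.0041) and, with the ACTB 5′ covariate, for IGFBP2 (0.11), IGFBP4 (0.12), IGF1R (−0.10) and IGF2R (0.26); the cause was not tested. With an array left out, ranges were −1.35 to −0.95 for IGFBP3, −0.97 to −0.92 for IGFBP5, −0.46 to −0.17 for IGFBP2 and −0.55 to −0.15 for IGF2R. Each of these fits leaves 1 array in a group. Which members pass there changes with the array left out, as does the number called over all genes, given below. Such fits assume that the lone array varies like the other group, and without a miR-20a array they take their spread largely from all genes.

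The number of genes called lower, 1 as reported, was 6 after quantile normalization, 45 after median centring, 4 with the dimmest 50% left out, 23 with the trend and robust prior, 5 with the ACTB 5′ covariate and 0 with the replicate block, and 0 to 1567 with an array left out. That called higher, 0 as reported, was 2, 0, 1 and 1 after median centring, quantile normalization, the trend and robust prior, and the covariate, and 0 to 302 with an array left out. With the replicate block IGFBP3 and IGFBP5 had limma adjusted p of 0.139 each; the labels do not say that equal numbers share a culture, and across genes the difference between replicates correlated at 0.27 between the groups. The depth of the measurement is set by signal over background, which limits IGFBP1 and IGFBP7.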
